A study of Homo sapiens with 4 samples.

Results

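The genes described here are 9 markers of blood lineages other than the red cell: CD3D and CD3E for T cells, CD79A and CD79B for B cells, MPO, ELANE, CD14 and LYZ for myeloid cells, and PTPRC for white cells in general. They were chosen by name from 19970 protein-coding genes. CpGs within the gene or 3 kb on either side of it were followed where all 4 libraries had values. In all, 1373 CpGs of these 9 windows were measured in all 4 libraries, of 23269121 such CpGs genome-wide. They made up 18.3% of the reference CpGs in the ELANE window, 22.6% in that of PTPRC and up to 100% in that of LYZ. The cells were HUDEP-2, an immortalised line of human erythroid precursors from umbilical cord blood that makes adult hemoglobin and is grown with doxycycline and erythropoietin. Whole-genome bisulfite sequencing, which reads each CpG as methylated or unmethylated, was applied to 4 cultures, 1 library each. The non-differentiated library came from untreated cells. The others came from cells taken through 4 days of erythroid growth and 2 days of maturation, with 0.1% DMSO alone, with a DNMT1 inhibitor in DMSO or with an EED inhibitor in DMSO, each present from the expansion stage on. All 4 groups are the same line, so that none is a panel of donors, and no group was repeated. The non-differentiated and DMSO libraries differ in both differentiation and vehicle.

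DNMT1 is the enzyme that copies CpG methylation onto the newly made strand at each cell division, and its inhibition lets methylation thin out as cells divide. EED is a core subunit of Polycomb repressive complex 2, which places a repressive mark on histone H3 and not on DNA. In the blood system, the promoters of lineage genes are often less methylated in the lineage that uses them than in lineages that do not. Methylation was measured here without expression, so whether any of these genes was transcribed is not known from these data.

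The libraries held 24689329 to 24971588 CpGs with at least 10 reads each, at a mean of 27.2 to 29.7 reads per CpG. A methylation level is the share of methylated reads among all reads of the CpGs of a region, in percent, with a 95% Wilson interval that covers counting error only. A level between 0% and 100% does not tell apart a share of cells, a share of alleles and a share of CpGs on each molecule. Over all shared CpGs the level was 61.7% in non-differentiated cells, 60.3% with DMSO, 16.8% after DNMT1 inhibition and 59.3% under EED inhibition. Where 4 levels stand in a row, their usual order is non-differentiated cells, DMSO, DNMT1 inhibitor, EED inhibitor. Within the 9 windows the mean coverage lay between 0.708 and 1.12 times the library's own mean.

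Sequences are shown for places where the methylation pattern is easiest to see against the letters, read 5′ to 3′ on the strand of the gene from hg38, with every CpG in capitals. The first pair are the 300 bases just upstream of the transcript start of CD3D (chr11:118342706-118343005, minus strand) and of CD79A (chr19:41876979-41877278, plus strand).
CD3D upstream of the start: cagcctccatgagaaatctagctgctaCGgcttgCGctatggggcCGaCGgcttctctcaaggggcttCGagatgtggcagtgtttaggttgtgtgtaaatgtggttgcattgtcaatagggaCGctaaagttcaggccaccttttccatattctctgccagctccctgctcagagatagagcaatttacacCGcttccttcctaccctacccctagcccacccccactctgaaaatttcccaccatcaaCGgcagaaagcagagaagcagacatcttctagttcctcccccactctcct
CD79A upstream of the start: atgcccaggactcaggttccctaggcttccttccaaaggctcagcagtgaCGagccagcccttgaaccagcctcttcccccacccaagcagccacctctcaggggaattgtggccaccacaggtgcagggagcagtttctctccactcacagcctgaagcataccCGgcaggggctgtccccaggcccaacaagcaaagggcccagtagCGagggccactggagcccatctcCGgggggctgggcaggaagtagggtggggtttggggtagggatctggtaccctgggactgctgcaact
Both stretches are poor in CpGs, with 8 and 4 of them. In the CD3D stretch highly and weakly methylated CpGs stand side by side. There the CpGs at −272, −265, −254 and −251 relative to the start were at 95.8%, 95.8%, 79.2% and 91.3% with DMSO. Only 20 bases on, at −231, the level was 9.09%. With the DNMT1 inhibitor the same 5 CpGs were at 32.4%, 24.3%, 14.6%, 21.4% and 2.33%. In the CD79A stretch the CpGs at −250, −135, −91 and −68 were at 29.0%, 8.33%, 57.7% and 4.17% with DMSO, and at 0%, 0%, 10.0% and 0% with the DNMT1 inhibitor, over 20 to 34 reads each.

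A further pair of short stretches, chosen for this, show CpGs that held on to methylation with the DNMT1 inhibitor, or had little to lose. The first holds 5 neighbouring CpGs of a CD79A coding exon with 10 bases on either side (chr19:41879257-41879300, plus strand). The other lies in the coding part of a CD14 run chosen for low DMSO levels, and is its 100 bases densest in CpGs (chr5:140632706-140632805, minus strand).
CD79A coding exon: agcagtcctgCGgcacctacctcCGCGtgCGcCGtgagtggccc
CD14 coding exon: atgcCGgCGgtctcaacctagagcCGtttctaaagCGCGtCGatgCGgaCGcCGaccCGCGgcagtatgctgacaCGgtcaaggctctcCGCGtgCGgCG
The 5 CpGs of the CD79A stretch were at 85.7% to 100% with DMSO and still at 52.0% to 72.0% with the DNMT1 inhibitor. In the CD14 stretch, which packs 16 CpGs into 100 bases, no CpG was above 15.4% in any of the 4 libraries.

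Promoter methylation of the marker genes was compared first. The promoter window runs from −1000 bp to +500 bp around the first base of the MANE transcript, the agreed reference transcript of a gene, and 8 of the 9 genes had at least 5 CpGs measured in all 4 libraries there. In the DMSO library the 8 promoters ranged from 18.7% (CD14) to 81.7% (LYZ), with a median of 57.4%. With the DNMT1 inhibitor they ranged from 0.518% (MPO) to 28.3% (LYZ), with a median of 12.4%. A promoter was called when its difference reached 25 percentage points and its adjusted p was under 0.01 by a two-sided Fisher's exact test on the reads of the 2 libraries, adjusted over all genes by Benjamini-Hochberg. By this rule 6 of the 8 promoters fell with the DNMT1 inhibitor, while over all 18118 promoters tested 43.7% fell and 0% rose. A promoter under 25% with DMSO cannot be called lower. At 20% or more with DMSO were 7 of the 8 promoters and 10698 of the 18118. The test compares 2 libraries and not 2 conditions, since no group was repeated, and reads over neighbouring CpGs of one molecule are not independent.

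**Figure D1:**
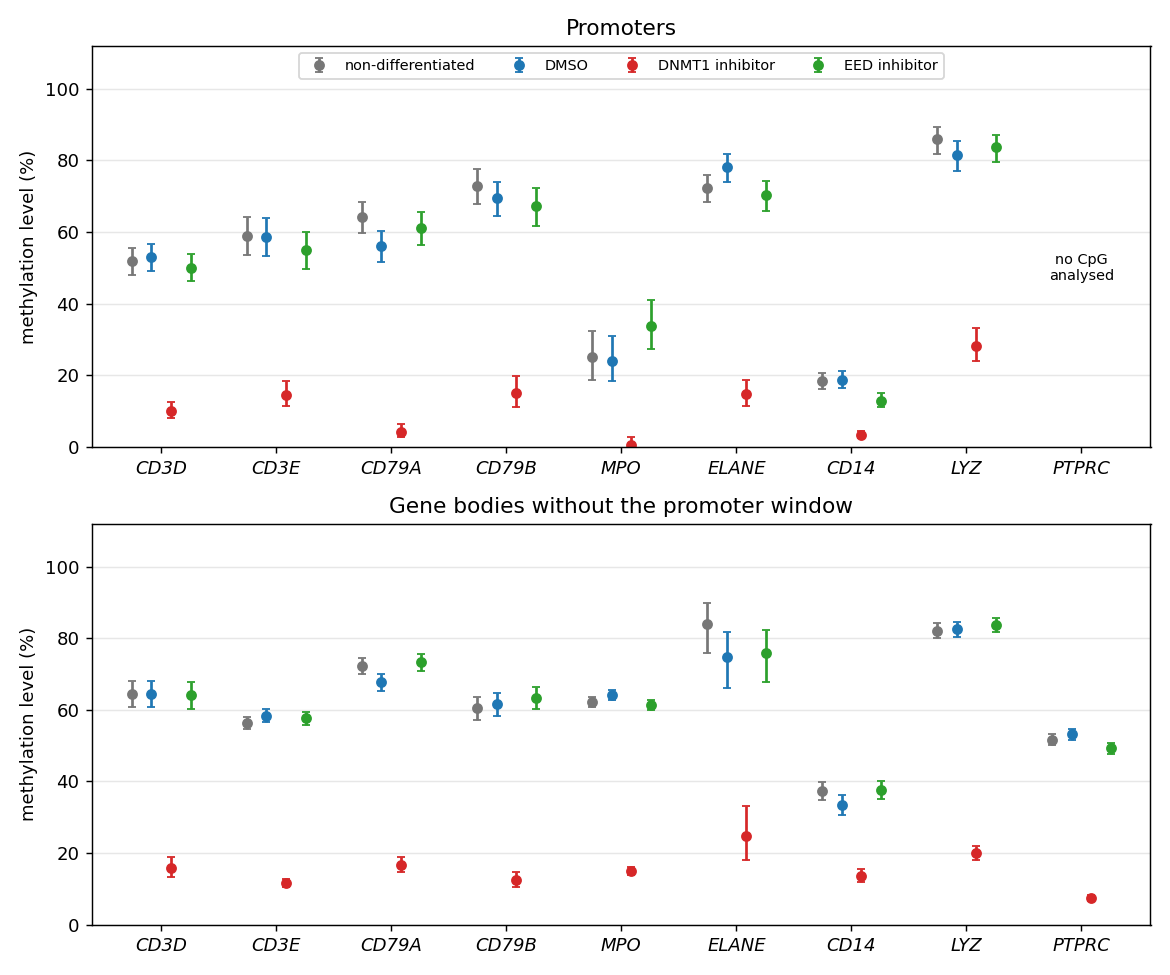
Methylation level (%) of the promoters (top) and gene bodies (bottom) of the 9 marker genes in the 4 libraries; points are levels over all reads of the shared CpGs and bars are 95% Wilson intervals for counting error. The DNMT1 inhibitor point lies below the others in every region drawn, down to 0.518% for the MPO promoter, while the others lie close together.

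CD3D and CD3E encode the delta and epsilon chains of CD3, the signalling part of the T cell receptor, and lie near each other on chromosome 11. The CD3D promoter (gene chr11:118339075-118342705, minus strand, 26 shared CpGs) was at 51.8% (47.9 to 55.7) in non-differentiated cells, 52.9% (49.1 to 56.8) with DMSO, 10.1% (8.17 to 12.5) with the DNMT1 inhibitor and 50.1% (46.3 to 53.8) under EED inhibition. The intervals of the libraries without DNMT1 inhibitor overlapped, and the DNMT1 inhibitor library lay far below all of them. The difference between DNMT1 inhibitor and DMSO was −42.8 points (95% interval −47.1 to −38.3, Fisher's exact test, adjusted p = 2.04e-69).

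The CD3E promoter (gene chr11:118304730-118316175, plus strand, 12 shared CpGs) was at 59.0% (53.6 to 64.2) in non-differentiated cells, 58.7% (53.4 to 63.8) with DMSO, 14.6% (11.5 to 18.4) with the DNMT1 inhibitor and 54.9% (49.6 to 60.2) under EED inhibition. Its difference from DMSO with the DNMT1 inhibitor was −44.1 points (−50.0 to −37.6, adjusted p = 2.65e-37 by Fisher's exact test). The average hides a difference between the CpGs upstream and downstream of the transcript start. The 6 CpGs upstream of it were at 37.4% with DMSO and 4.87% with the DNMT1 inhibitor, and the 6 CpGs downstream of it at 80.6% and 26.6%. The upstream part is itself uneven. It holds a run of 3 CpGs from −273 to −39, which read 12.9%, 16.5%, 2.08% and 6.25% in the usual order, and a lone CpG at −660 at 0% with DMSO.

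CD79A and CD79B encode the paired signalling chains of the B cell receptor. The CD79A promoter (gene chr19:41877279-41881372, plus strand, 15 shared CpGs) was at 64.3% (59.8 to 68.5) in non-differentiated cells, 56.0% (51.7 to 60.2) with DMSO, 4.22% (2.77 to 6.36) with the DNMT1 inhibitor and 61.0% (56.3 to 65.5) under EED inhibition. With the DNMT1 inhibitor it differed by −51.8 points from DMSO (−56.3 to −47.0, adjusted p = 5.01e-80 by Fisher's exact test), which left 7.53% of the DMSO level (4.92 to 11.5). No CpG of this promoter exceeded 10.9% with the DNMT1 inhibitor. In a narrower promoter of 250 bp on either side of the start, with 5 shared CpGs, the difference was −20.3 points. The DMSO level there was 22.1%, so that a fall of the 25 points needed for a call was not possible.

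The CD79B promoter (gene chr17:63928738-63932336, minus strand, 18 shared CpGs of 35 in the reference) was at 72.9% (67.8 to 77.6) in non-differentiated cells, 69.4% (64.5 to 73.9) with DMSO, 15.0% (11.2 to 19.9) with the DNMT1 inhibitor and 67.2% (61.7 to 72.3) under EED inhibition. Its difference from DMSO with the DNMT1 inhibitor was −54.4 points (−60.3 to −47.5, adjusted p = 4.34e-43 by Fisher's exact test). Coverage was low here, at 14.4 to 20.2 reads per CpG. When the reads were divided by the number of CpGs before the test, the adjusted p of CD79B was 0.0103 by Fisher's exact test and the call was lost. The 9 CpGs upstream of its start kept more methylation, 22.8% with the DNMT1 inhibitor against 78.6% with DMSO, than the 9 downstream, at 2.04% against 61.5%.

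MPO and ELANE encode myeloperoxidase and neutrophil elastase, enzymes of the granules of neutrophils and their precursors. The MPO promoter (gene chr17:58269855-58280935, minus strand, 8 shared CpGs) was at 25.0% (18.8 to 32.4) in non-differentiated cells, 24.0% (18.3 to 30.8) with DMSO, 0.518% (0.0915 to 2.88) with the DNMT1 inhibitor and 33.9% (27.5 to 40.9) under EED inhibition. The DNMT1 inhibitor library held 1 methylated read of 193, and the difference was −23.5 points (−30.3 to −17.3, Fisher's exact test, adjusted p = 6.00e-14). This was not a call, but from 24.0% with DMSO a fall of 25 points was not possible. With a promoter reaching 2000 bp upstream, and with CpGs listed in these 2 libraries alone, the differences were −33.4 and −25.6 points and both were calls. A run of 7 CpGs from −1282 to −298, 5 of them in the promoter window, was at 7.24%, 7.45%, 0.98% and 15.5% in the usual order. One of its CpGs, at −466, was at 77.8% under EED inhibition.

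The ELANE promoter (gene chr19:851014-856247, plus strand) was at 72.4% (68.4 to 76.0) in non-differentiated cells, 78.1% (73.9 to 81.7) with DMSO, 14.7% (11.5 to 18.6) with the DNMT1 inhibitor and 70.3% (65.8 to 74.4) under EED inhibition. The difference with the DNMT1 inhibitor, −63.4 points (−68.3 to −57.7, adjusted p = 2.44e-77 by Fisher's exact test), was the greatest among the 8 promoters. These values rest on 19 of 68 reference CpGs, all upstream of the MANE start at chr19:852303, and the rest of this CpG-rich promoter was not analysed here.

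CD14 encodes the co-receptor for bacterial lipopolysaccharide on monocytes. Its promoter (gene chr5:140631728-140633700, minus strand, 47 shared CpGs) was at 18.3% (16.2 to 20.7) in non-differentiated cells, 18.7% (16.4 to 21.2) with DMSO, 3.35% (2.50 to 4.46) with the DNMT1 inhibitor and 13.0% (11.2 to 15.0) under EED inhibition. The −15.3 points between DNMT1 inhibitor and DMSO (−18.0 to −12.8, Fisher's exact test, adjusted p = 5.21e-35) were not a call, but from 18.7% with DMSO a fall of 25 points was not possible. The value depends on the window: −3.01 points within 250 bp of the start and −29.6 points, a call, with a promoter reaching 2000 bp upstream. The window holds a sharp border. The 7 CpGs upstream of the start were at 84.7%, 84.8%, 17.3% and 77.1% in the usual order, and the 40 CpGs downstream of it at 2.43%, 1.71%, 0.809% and 2.70%.

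**Figure D2:**
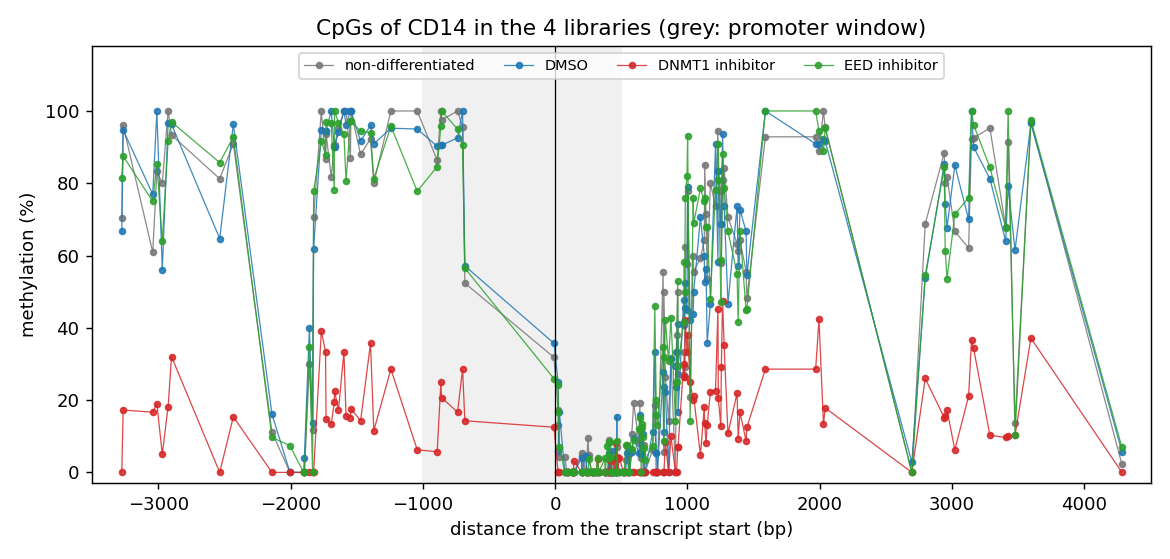
Methylation (%) of each shared CpG of CD14 against distance from the transcript start (bp), one line per library. Upstream CpGs are mostly methylated in the 3 libraries without DNMT1 inhibitor, a low stretch runs from −9 to +978 bp in all 4 libraries, and levels climb again toward the 3′ end of the gene.

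The low stretch of CD14 covered 988 bp (chr5:140632197-140633184), 76 CpGs in all, of which 65 lay in coding sequence. It read 8.74%, 7.96%, 1.84% and 9.77% in the usual order. The 100 bases of CD14 printed above were picked from within it. It was the longest of the runs by number of CpGs, 48 of which were found in the 9 windows when runs of at least 3 neighbouring CpGs under 50% with DMSO were listed. Next by number came a run of 60 CpGs (chr19:41882805-41884347) at the downstream edge of the CD79A window, at 4.28%, 4.11%, 1.44% and 3.79%. That run holds the start of the neighbouring gene ARHGEF1 at chr19:41883173, which encodes an exchange factor for the small GTPase RhoA, and so does not belong to CD79A alone. A run of 14 CpGs just past the end of CD3E (chr11:118316281-118316886) read 6.55%, 3.87%, 1.27% and 10.1%.

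LYZ encodes lysozyme, a secreted enzyme that cleaves bacterial cell walls. Its promoter (gene chr12:69348381-69354234, plus strand, 12 shared CpGs) was the most methylated of the 8, at 85.9% (81.7 to 89.3) in non-differentiated cells, 81.7% (77.1 to 85.5) with DMSO, 28.3% (23.9 to 33.1) with the DNMT1 inhibitor and 83.7% (79.5 to 87.2) under EED inhibition. The difference with the DNMT1 inhibitor was −53.4 points (−59.2 to −46.7, adjusted p = 1.81e-46 by Fisher's exact test). No run of low CpGs was found anywhere in the LYZ window. Each of its 96 CpGs read lower in the DNMT1 inhibitor library than in the DMSO library, 93 of them by at least 25 points.

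PTPRC encodes CD45, the receptor phosphatase found on all nucleated blood cells outside the red lineage. Of the 667 reference CpGs in its window (gene chr1:198638457-198757476, plus strand), 151 were used here, the first at chr1:198726442. Its promoter and the first 88 kb of the gene were not analysed here, and its values describe the last 31 kb.

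**Figure D3:**
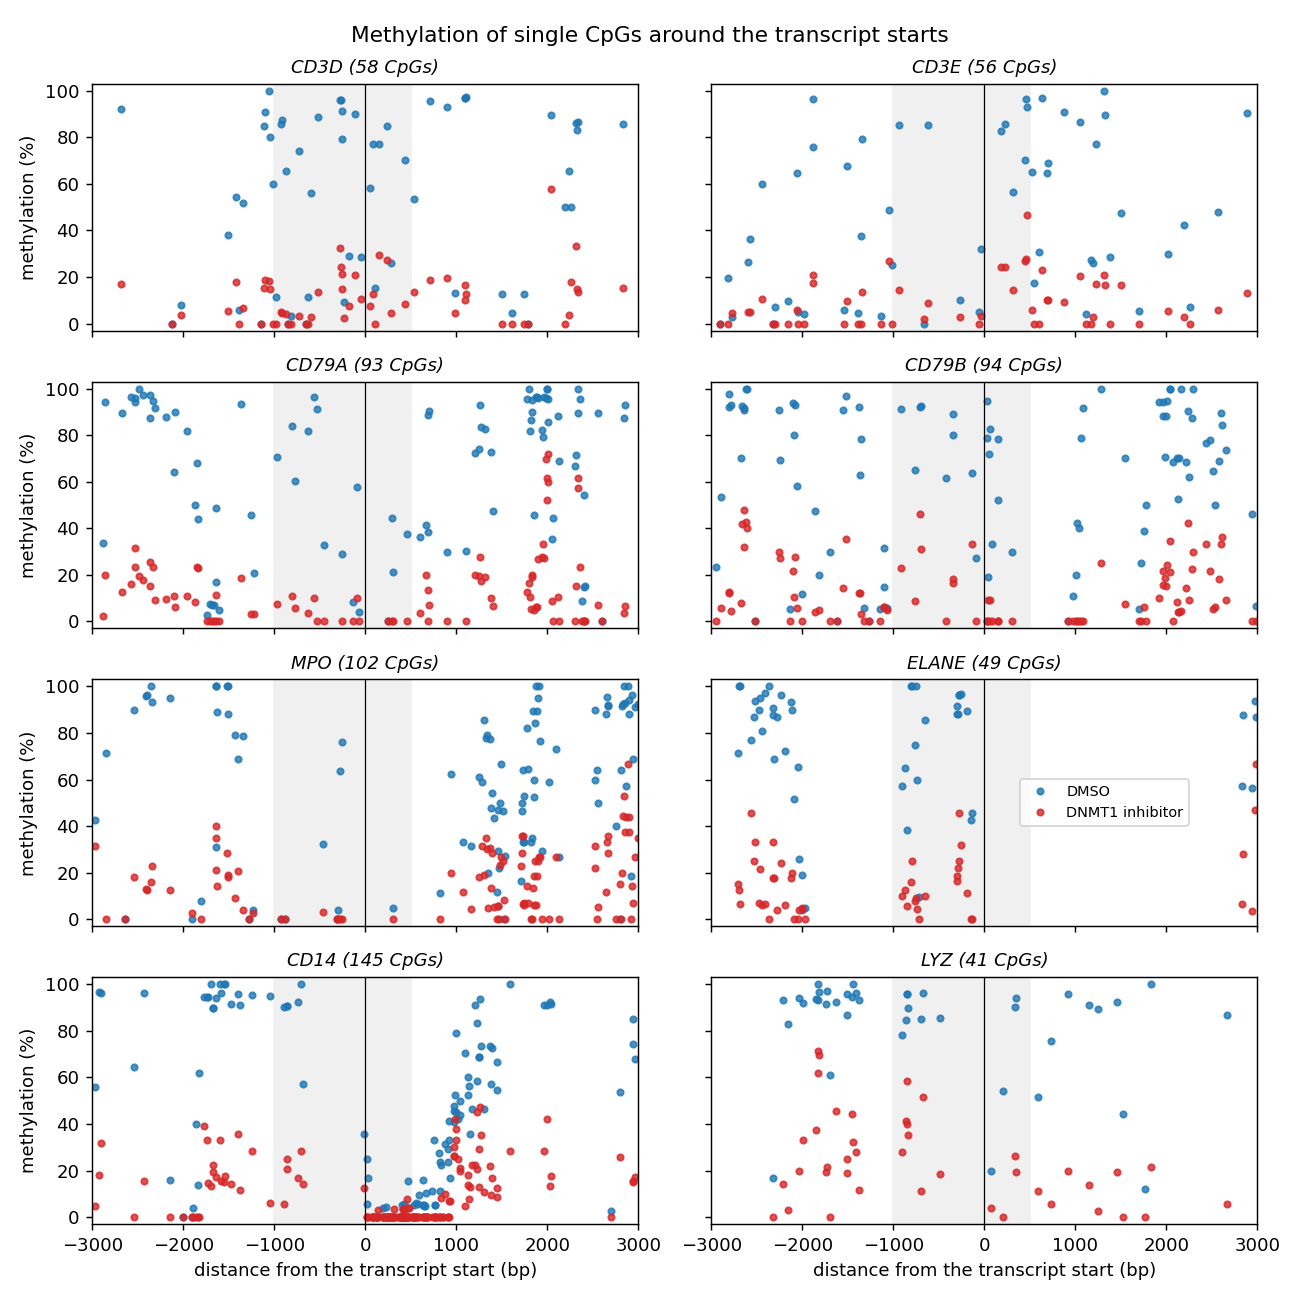
Methylation (%) of single shared CpGs against distance from the transcript start (bp) with DMSO (blue) and with the DNMT1 inhibitor (red) for the 8 genes with a measured promoter, shown in grey. High and low DMSO values stand side by side in most genes, few are low in LYZ, and DNMT1 inhibitor values lie mostly at or under 20%.

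Gene bodies, from gene start to gene end without the promoter window, were compared next. All 9 were lower with the DNMT1 inhibitor than with DMSO and 8 were calls, against 96.4% of 18804 gene bodies tested. Their count is thus close to the background. The bodies ranged from 33.3% (CD14) to 82.5% (LYZ) with DMSO and from 7.40% (PTPRC) to 24.8% (ELANE) with the DNMT1 inhibitor, with medians of 64.1% and 14.9%.

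Among the T cell and B cell genes, the CD3D body read 64.6%, 64.5%, 15.8% and 64.1% over 27 CpGs, in the usual order. CD3E read 56.4%, 58.4%, 11.5% and 57.6% over 102 CpGs. These values place CD3E below CD3D in every library. Their promoters stood in the reverse order, but with overlapping intervals in each library. With a promoter reaching 2000 bp upstream, CD3D was at 53.3% and CD3E at 49.8% with DMSO. CD79A read 72.3%, 67.6%, 16.7% and 73.3% over 59 CpGs, and CD79B 60.5%, 61.6%, 12.5% and 63.4% over 52 CpGs. The differences between DNMT1 inhibitor and DMSO were −48.6, −46.8, −51.0 and −49.1 points for the 4 genes, all calls. Most of the CD79B body also belongs to an overlapping gene on the same strand (chr17:63917203-63931385) that has no symbol in the annotation. The levels there cannot be assigned to either gene. Outside the genes themselves, the windows of CD3D, MPO and ELANE also touch CD3G, LPO and PRTN3, which encode another CD3 chain, lactoperoxidase and proteinase 3.

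Among the myeloid genes, the MPO body read 62.1%, 64.1%, 14.9% and 61.4% over 197 CpGs in the same order. The ELANE body read 84.0%, 74.8%, 24.8% and 75.8%, but over 5 of 198 reference CpGs and 106 to 132 reads. LYZ read 82.1%, 82.5%, 19.9% and 83.8% over 47 CpGs. The differences of these 3 bodies were −49.2, −50.0 and −62.6 points, all calls, with the highest adjusted p at 1.19e-14 for ELANE by Fisher's exact test. The measured part of the PTPRC body read 51.7%, 53.2%, 7.40% and 49.2% over 140 CpGs, a difference of −45.8 points and also a call.

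The CD14 body, whose CpGs all lay in exon sequence, was the lowest of the 9 with DMSO. It read 37.4% (34.8 to 40.0), 33.3% (30.5 to 36.2), 13.7% (11.9 to 15.7) and 37.7% (35.2 to 40.2) over 59 CpGs in the same order. Its difference of −19.6 points (−23.0 to −16.2, Fisher's exact test, adjusted p = 1.20e-29) was not a call. With a minimum of 20 reads per CpG, which left 6 CpGs, the CD14 difference was −40.2 points and a call. Over all settings it ran from −40.2 to −12.0 points.

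How much methylation was left can be put as the DNMT1 inhibitor level in percent of the DMSO level. Among promoters with at least 20% with DMSO, the 7 marker genes kept a median of 19.2%, and all 10698 such promoters a median of 23.8% with quartiles at 17.5% and 31.2%. MPO kept 2.16% (0.30 to 15.5) and CD79A 7.53%, which rank at percentiles 0.122 and 1.94 of all such promoters. The MPO value depends on the CpGs taken. Over the 9 CpGs listed in these 2 libraries its level went from 28.5% to 2.88%, so that 10.1% was kept, at percentile 4.44. With a promoter reaching 2000 bp upstream it went from 42.1% to 8.67% over 22 CpGs, so that 20.6% was kept, at percentile 32.9. CD79A kept 11.7% in that longer promoter, at percentile 3.92. At the other end LYZ kept 34.7% (29.2 to 41.1), at percentile 82.5. ELANE kept 18.8%, CD3D 19.2%, CD79B 21.6% and CD3E 24.9%, between the quartiles of all genes in this window. CD79B left that range with other settings, at 16.2% kept (percentile 18.8) unweighted and 8.89% (percentile 4.26) within 250 bp of the start. ELANE and CD3D moved just below it in the longer promoter, to percentiles 24.9 and 24.2. In gene bodies the lowest and highest shares were 13.9% (12.4 to 15.6) in the measured end of PTPRC and 41.0% (34.9 to 48.3) in CD14, at percentiles 1.53 and 97.8 of 18484 bodies, whose median was 26.6%. With a minimum of 20 reads the CD14 body kept 31.2%, at percentile 84.1, over 6 CpGs. Unweighted it kept 32.6%, at percentile 82.9, and the highest share was then 39.9% in the ELANE body, at percentile 96.8 over 5 CpGs.

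**Figure D4:**
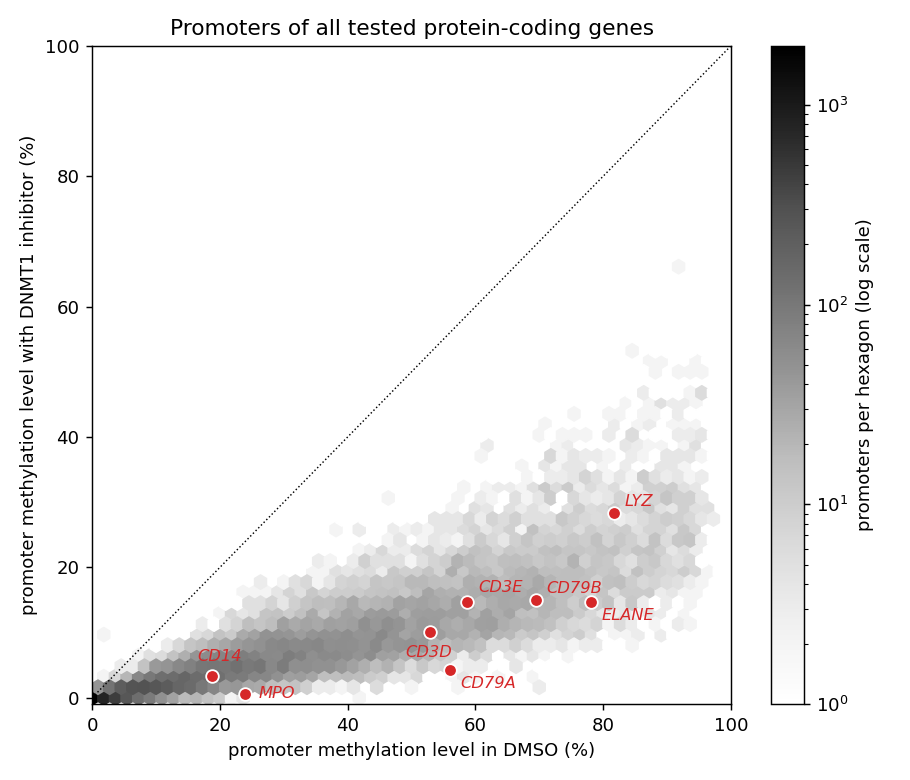
Promoter methylation level (%) with the DNMT1 inhibitor against that with DMSO for all 18118 tested promoters (grey hexagons, shade on a log scale of promoters per hexagon) with the 8 marker genes in red; the dotted line marks equal levels. All 8 lie well below the line, CD79A and MPO along the lower edge of the cloud and LYZ in its upper part.

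At single CpGs the same picture held in detail. Of the 1373 CpGs, 972 (70.8%) were lower by at least 25 points with the DNMT1 inhibitor than with DMSO, and none was higher by that much. The share over all shared CpGs genome-wide was 72.1%. Counted by sign, 1210 were lower, 143 equal and 20 higher. The share lower by 25 points ran from 47.2% of 159 CpGs in the CD14 window and 59.5% of 195 in that of CD79A to 96.9% of 96 in that of LYZ. The windows with the smallest shares were those with the largest shares of CpGs at 20% or less with DMSO already. These were 43.4% for CD14 and 36.4% for CD79A against 3.13% for LYZ. The CD79A window includes the run of 60 CpGs that holds the start of ARHGEF1, at 4.11% with DMSO. Its shares therefore do not describe CD79A alone.

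CpGs that stayed at 50% or more with the DNMT1 inhibitor numbered 27 (1.97%, against 5.98% of all shared CpGs). Of these, 12 lay in coding exons, 3 in introns, 2 in promoters, 3 in upstream and 7 in downstream flanks. CD79A held 7 of them, all in coding exons between chr19:41879267 and chr19:41879622 and 5 of them in the sequence printed above. LYZ held 5, of which the 2 promoter CpGs at −853 and −670 were at 58.6% and 51.7%, over 29 reads each. MPO and ELANE held 5 each, CD3D 4 and PTPRC 1, and CD3E, CD79B and CD14 had none. At 13 to 34 reads per CpG the intervals are wide, for instance 49.1% to 84.4% for the CpG at 69.6% in CD79A.

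Exons and the rest of the gene body could be compared in 7 genes. With DMSO the exons were higher in 5 of the 7, and their 95% intervals lay above those of the rest in CD3D, CD3E, CD79A and MPO. With the DNMT1 inhibitor the exons were higher in all 7, with intervals apart in CD79A, LYZ and MPO. CD79A exons were at 78.5% with DMSO and 25.5% with the DNMT1 inhibitor, the rest of its body at 56.5% and 8.41%. MPO exons were at 70.9% and 19.1%, the rest of its body at 55.8% and 11.3%. The share kept was also split by how many CpGs stood within 250 bp on either side, counting the CpG itself. Taking CpGs whose level in untreated, non-differentiated cells was at least 80%, those with 1 to 5 CpGs within 250 bp kept 18.7% of the DMSO level (17.4 to 20.2, 113 CpGs) and those with at least 21 kept 35.0% (32.5 to 37.6, 74 CpGs of 4 genes). The classes between were not in order: 25.3% in the class of 6 to 10 (180 CpGs) and 23.3% in that of 11 to 20 (190 CpGs).

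The EED inhibitor was compared with the same DMSO library, which all comparisons share. None of the 8 promoters and none of the 9 bodies was called by Fisher's exact test, where 0.0221% of all promoters rose, 0% fell, and 0% of bodies changed either way. At an unadjusted p under 0.05 by Fisher's exact test there were 3 of the 8 promoters, against 21.2% of all promoters, and 4 of the 9 bodies, against 36.5% of all bodies. With each region's reads scaled down by its CpG number, 0 promoters and 0 bodies of the marker genes were at such a p, and with the non-differentiated library as the reference 1 promoter and 1 body were. The promoter differences ran from −7.83 points in ELANE to 9.87 points in MPO. The MPO value comes mostly from 1 CpG of its promoter, the one singled out among the other observations below. An adjusted p under 0.05 by Fisher's exact test, with differences far from 25 points, was found for the CD14 promoter (−5.74 points, adjusted p = 0.00652) and for the bodies of CD79A (5.64 points, adjusted p = 0.009), MPO (−2.70 points, adjusted p = 0.0374) and PTPRC (−3.96 points, adjusted p = 0.00188). An adjusted p that low was found for 8.15% of all promoters and 26.5% of all bodies. The directions of CD14 and MPO turned under other settings. The unweighted CD14 promoter differed by 0.280 points, that within 250 bp of the start by 0.649 points, and the MPO body with at least 20 reads per CpG by 0.579 points. At single CpGs, 115 (8.38%) differed by at least 25 points either way, against 5.22% of all shared CpGs. The count was 32 of the 266 CpGs in the MPO window, at a mean coverage of 21.7 to 22.8 reads, and 18 of the 151 in the PTPRC window (11.9%), at 26.6 to 32.1 reads. The share was lowest in the LYZ window, with 3 of 96 CpGs (3.13%).

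Differentiation with DMSO was compared with the non-differentiated, untreated library. No promoter and no body of the 9 genes was called by Fisher's exact test, and 0% of all promoters and 0% of all bodies were. At an unadjusted p under 0.05 by Fisher's exact test there were 1 of the 8 promoters, against 17.5% of all promoters, and 2 of the 9 bodies, against 51.4% of all bodies. Promoter differences ran from −8.29 points in CD79A (−14.3 to −2.15, adjusted p = 0.106 by Fisher's exact test) to 5.69 points in ELANE (0.166 to 11.1, adjusted p = 0.289). The CD79A body, at −4.65 points (adjusted p = 0.0207 by Fisher's exact test), was the only region of the 17 with an adjusted p under 0.05, where 5.34% of all promoters and 45.4% of all bodies had one. With reads scaled down by CpG number, 0 of the 17 regions had an unadjusted p under 0.05. Single CpGs that differed by at least 25 points numbered 69 (5.03%), against 2.89% of all shared CpGs. The share was highest in the CD79B window (8.97%), at a mean coverage of 20.4 reads in non-differentiated cells and 21.4 with DMSO. It was lowest in the LYZ window (1.04%), at 26.5 and 27.9 reads. The means of these 2 libraries were 27.2 and 28.0 reads. Whether depth bears on these shares was not tested.

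The marker genes were set beside longer lists of genes of the same lineages and of red cells. With DMSO the median promoter level was 56.1% over 19 T cell genes, 46.2% over 19 B cell genes, 38.9% over 16 myeloid genes, 26.2% over 15 genes shared by white cells and 15.2% over 27 red cell genes, against 27.5% over all genes. With the DNMT1 inhibitor these medians were 8.33%, 8.94%, 8.15%, 4.13% and 1.75%, against 5.68%. Promoters called lower numbered 14 of 19, 16 of 19, 14 of 16, 6 of 15 and 9 of 27 genes, against the 43.7% of all promoters. These counts depend on the starting level, since a promoter under 25% with DMSO cannot be called lower. Promoters at 20% or more with DMSO numbered 17, 17, 15, 10 and 11 in the 5 lists, and 10698 of 18118 among all genes. Of the 69 other white cell genes tested, 50 fell and none rose, while EED inhibition and differentiation gave no call. In gene bodies the calls numbered 19 of 19, 19 of 19, 17 of 18, 15 of 15 and 26 of 28, near the background of 96.4%.

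**Figure D5:**
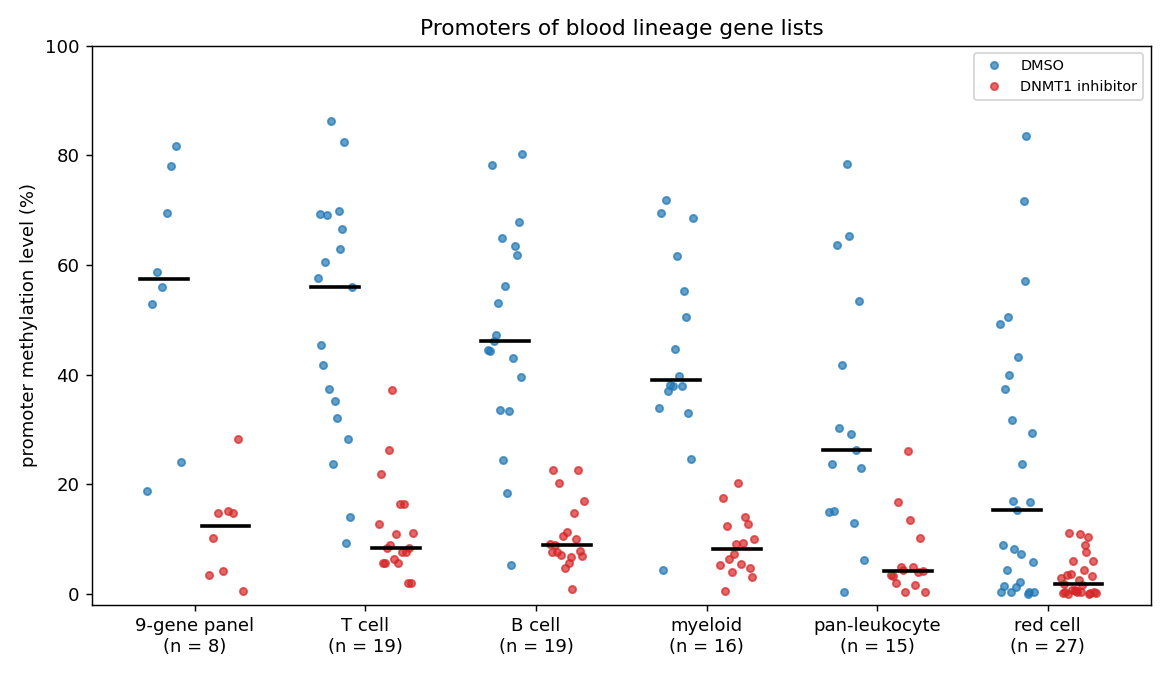
Promoter methylation level (%) of each tested gene of 6 lists with DMSO (blue) and with the DNMT1 inhibitor (red); black bars are medians and n is the number of tested genes. DMSO medians step down from 57.4% in the 9-gene panel to 15.2% in the red cell list, and the DNMT1 inhibitor medians lie between 1.75% and 12.4%.

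Within each lineage the promoters differed widely with DMSO. In the T cell list the lowest were TCF7, a transcription factor of T cell development, at 9.27% and UBASH3A, a regulator of T cell receptor signalling, at 13.9%, and the highest were the adaptor SIT1 at 82.5% and the surface protein CD7 at 86.3%. CD7 still read 37.2% with the DNMT1 inhibitor, SIT1 7.56%. In the B cell list PAX5, the factor that sets B cell identity, was at 5.21% and IGLL1, a part of the surrogate light chain, at 18.4%, while VPREB3 was at 80.3%. The myeloid factor CEBPA was at 4.40% and SPI1, which encodes PU.1, at 24.5%, while the macrophage protein CD68 was at 69.4% and the granulocyte factor CEBPE at 71.9%. Of the white cell list, IKZF1 was at 0.316%, SELPLG at 6.20%, ITGB2 at 65.3% and ITGAL at 78.5%.

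Red cell genes were not all low. ANK1, a gene of the membrane skeleton, was at 0.226% with DMSO, but the Rh blood group gene RHCE was at 71.6% and SLC4A1, which encodes the anion exchanger band 3, at 83.5%. Promoters under 20% with DMSO made up 16 of 27 in the red cell list, 1 of 8 in the marker panel and 41.0% of all genes.

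For each marker gene the most similar promoter profile was sought among the 96 genes of these lists, by the Euclidean distance over the 4 libraries. CD3E had the closest partner, CD2, another T cell surface protein, at 2.82 points, with 59.4%, 57.7%, 12.7% and 56.7% in the usual order. CD79B was nearest to TYROBP (5.08 points), CD14 to TAL1 (5.33), CD79A to CD4 (6.44), CD3D to S100A8 (6.62), LYZ to ITGAL (6.83) and MPO to LSP1 (7.67). ELANE, at 9.59 points from the red cell gene RHCE, had the most distant partner.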

How the data were processed

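Whole-genome bisulfite libraries of 4 HUDEP-2 cultures were used, 1 per group. Per the submitters' processing notes, Trim Galore 0.6.7, cutadapt 4.1, Bismark, Bowtie2 2.1.0, methylKit and hg38 were used, with no order or settings given. Per the file headers, each table the authors deposited gives, for a CpG with both strands merged, the read count that covers it and what percent of those reads carry C or T. CpGs under 10 reads are missing from them. Removal of duplicates is not given in the sources used here, and duplicates left in would make reads less independent. Methylated reads were recovered as coverage times the deposited percent, and every CpG came out whole (tolerance 0.0005 of its coverage).

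CpGs on chromosomes 1 to 22 and X listed in all 4 tables were used. Genes and MANE starts came from GENCODE 44, and sequences from hg38. In all protein-coding genes, regions holding 5 or more shared CpGs were put to a two-sided Fisher's exact test, with Benjamini-Hochberg adjustment within each of 3 comparisons and kind of region, using Python 3.11.15, NumPy 2.4.6, pandas 2.3.3, SciPy 1.17.1 and numba 0.67.0. The code was tested on simulated data. Intervals are 95% Wilson for levels, Newcombe for differences and log-scale for ratios. Alternatives were a minimum of 20 reads, an unweighted mean, reads divided by CpGs, CpGs of the 2 libraries compared, other promoter windows, a threshold of 10 points with adjusted p under 0.05, leaving out CpGs above the 99.9th percentile of coverage, and the non-differentiated library as the reference. The marker genes and the lists were chosen with earlier results of these data known. Genes named from each longer list are the 2 with the highest and the 2 with the lowest DMSO promoter level, the gene with the nearest promoter profile, and protein-coding genes overlapping a window. Some of these genes and some sequences are not reported here.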

Additional observations from a re-analysis of the deposited data

How the results depend on the processing

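No paired analysis was possible because each group had 1 library. With promoters of 250 bp on either side of the start, 4 of the marker promoters had enough CpGs and 2 of them, CD3D and CD79B, were called lower with the DNMT1 inhibitor. Of 9 named promoters and bodies compared for the EED inhibitor or for differentiation, 2 reversed, both with the EED inhibitor. The MPO body was at 0.579 points with a minimum of 20 reads, against −2.70 in the main results. The CD14 promoter was at 0.280 points unweighted and 0.649 points within 250 bp, against −5.74 in the main results. Of the single differences between DNMT1 inhibitor and DMSO under the alternatives, 127 kept their direction and side of the threshold, 7 passed it, 2 lost it (CD79A within 250 bp and CD79B with divided reads) and none changed sign. Those that passed include the MPO and CD14 promoters and the CD14 body at 10 points, where the threshold changed and not the difference. The number of all promoters lower with the DNMT1 inhibitor was 7916 of 18118 tested. It was 3328 of these with reads divided by CpGs and 12369 of these at 10 points, 2503 of 11209 within 250 bp and 12219 of 18819 with 2000 bp upstream. At 10 points all 8 marker promoters and all 9 bodies were called, where 18609 of all 18804 bodies tested were lower. The count of bodies is thus close to the background. There 157 promoters fell and 228 rose with the EED inhibitor and 152 fell and 78 rose with differentiation. With the settings of the main results these counts were 0 and 4, and 0 and 0, and none was a marker gene in either case. For bodies at 10 points the counts were 30 and 25, and 17 and 7. Depth limits single CpGs, at 13 to 34 reads where methylation was kept, and the ELANE body rests on the 5 CpGs that reached 10 reads in all 4 libraries.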

Other observations

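A single MPO promoter CpG, chosen after its values were seen, differed from its neighbours between libraries. At −466 from the start (chr17:58281401) it read 32.1% (17.9 to 50.7) in non-differentiated cells, 32.3% (18.6 to 49.9) with DMSO, 3.03% (0.537 to 15.3) with the DNMT1 inhibitor and 77.8% (61.9 to 88.3) with the EED inhibitor, over 28 to 36 reads. The promoter CpGs at −306, −883 and −923 were at 0% in all 4 libraries.

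Lone CpGs with low readings stood between more methylated neighbours. Whether the line's own sequence holds a CpG at these positions was not tested. Of 211 CpGs at 10% or less in the 3 libraries without DNMT1 inhibitor, 19 had both measured neighbours at 50% or more with DMSO, and these were spread over 8 genes. In CD3D the CpG at −1142 was at 0% in all 4 libraries, over 18 to 26 reads, and in MPO those at chr17:58269001 and chr17:58271306 were as well. In CD3E the CpG at −660 was at 0%, 0%, 1.79% and 2.13% in non-differentiated cells, DMSO, DNMT1 inhibitor and EED inhibitor, over 34 to 56 reads.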
